A study of Mus musculus with 10 samples.

Results

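The 10 genes described here encode parts of the machinery that licenses and feeds DNA replication: the 6 subunits of the MCM helicase (Mcm2, Mcm3, Mcm4, Mcm5, Mcm6 and Mcm7), the helicase loader Cdc6, the sliding clamp Pcna, and Rrm1 and Rrm2, the large and small subunits of ribonucleotide reductase. They were taken by symbol from the 24062 genes of the count table, all 10 were found, and all 10 passed the filter on low counts that left 15547 genes for testing. The RNA came from whole kidneys of adult male mice. Ehhadh knockout (KO, n = 4) and wild-type (WT, n = 4) mice were of the C57BL/6N strain, and 1 wild-type mouse each of DBA_2J and 129S2_SvPasCrl was added. Ehhadh encodes a bifunctional enzyme of peroxisomal fatty acid oxidation. How the allele was made, and the exact ages, are not given in the sources used here.

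The MCM proteins form a ring of 6 different subunits that is loaded onto replication origins before S phase by the origin recognition complex, Cdc6 and Cdt1. The loaded ring is inactive until kinases and further factors turn it into the helicase that opens the fork. Pcna encircles DNA behind the fork and tethers polymerases and repair enzymes to it, and ribonucleotide reductase makes the deoxynucleotides that they polymerise. Many of these genes are known targets of the E2F transcription factors, which are held back by the retinoblastoma protein in resting cells. Most tubule cells of the adult kidney rest outside the cell cycle and re-enter it after injury. Pcna also serves DNA repair and is a known target of p53, so its RNA is present in resting tissue as well.

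The start regions of these genes were searched for words related to that control, which not all of them carry. Of these regions 5 are printed because the results below turn on the genes behind them. The windows are RefSeq sequences of GRCm38.p6, the same assembly as mm10, written 5′ to 3′ along the gene. They run from 250 bases before to 50 bases from the RefSeq start, to which distances here refer. That start can differ from the gene end in the count annotation, whose positions are given below. The Cdc6 window, 98907901 to 98908200, lies inside the gene as counted, and the Mcm3 window lies outside it. Capitals mark matches, on either strand, to E2F words (TTTGGCGC, TTTCCCGC, TTTCGCGC or TTTGCCGC) and to CCAAT, the word bound by NF-Y.
Mcm6, chr1:128359656-128359955, minus strand: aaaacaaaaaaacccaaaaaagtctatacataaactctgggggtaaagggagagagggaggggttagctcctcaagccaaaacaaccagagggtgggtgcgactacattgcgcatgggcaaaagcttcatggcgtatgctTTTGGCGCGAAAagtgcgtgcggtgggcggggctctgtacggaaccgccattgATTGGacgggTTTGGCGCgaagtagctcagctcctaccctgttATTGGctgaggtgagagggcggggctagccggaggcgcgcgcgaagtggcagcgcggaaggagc
Mcm3, chr1:20820263-20820562, minus strand: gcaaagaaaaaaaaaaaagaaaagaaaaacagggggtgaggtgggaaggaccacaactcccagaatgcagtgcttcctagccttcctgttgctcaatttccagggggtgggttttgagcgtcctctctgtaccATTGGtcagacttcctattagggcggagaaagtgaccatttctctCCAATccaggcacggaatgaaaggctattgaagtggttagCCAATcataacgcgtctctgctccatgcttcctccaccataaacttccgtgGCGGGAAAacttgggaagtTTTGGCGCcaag
Mcm7, chr5:138171834-138172133, minus strand: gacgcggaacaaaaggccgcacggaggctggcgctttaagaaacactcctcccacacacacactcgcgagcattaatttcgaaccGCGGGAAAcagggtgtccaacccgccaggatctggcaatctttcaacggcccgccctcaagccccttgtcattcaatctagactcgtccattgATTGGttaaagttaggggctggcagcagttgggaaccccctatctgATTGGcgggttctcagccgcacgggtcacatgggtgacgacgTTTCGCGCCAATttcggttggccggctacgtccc
Pcna, chr2:132253131-132253430, minus strand: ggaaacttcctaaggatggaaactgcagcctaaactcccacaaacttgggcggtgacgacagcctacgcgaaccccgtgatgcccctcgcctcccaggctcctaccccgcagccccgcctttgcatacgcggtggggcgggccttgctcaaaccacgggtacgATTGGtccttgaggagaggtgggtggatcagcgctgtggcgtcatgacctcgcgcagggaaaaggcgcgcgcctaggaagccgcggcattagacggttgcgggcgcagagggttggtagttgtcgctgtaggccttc
Rrm2, chr12:24708004-24708303, plus strand: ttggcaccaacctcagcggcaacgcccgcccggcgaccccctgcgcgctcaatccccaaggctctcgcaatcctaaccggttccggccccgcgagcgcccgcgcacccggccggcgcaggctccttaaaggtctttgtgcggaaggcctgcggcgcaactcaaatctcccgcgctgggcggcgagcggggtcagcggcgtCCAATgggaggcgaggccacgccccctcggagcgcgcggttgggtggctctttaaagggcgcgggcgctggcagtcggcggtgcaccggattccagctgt
In Mcm6 the E2F words begin 110, 106 and 47 bases before the start, the first pair overlapping, and CCAAT matches lie 57 and 14 bases before it. Mcm3 carries its E2F words 19 and 38 bases after the start. Mcm7 has one 165 bases before and one 16 bases after the start, the latter overlapping a CCAAT match. A second window for Mcm7, 138171217 to 138171516, held 0 E2F words and 1 CCAAT match, 47 bases before its own start. Pcna and Rrm2 have no exact E2F word in the window and 1 CCAAT match each, 87 and 50 bases before the start. The table held windows for 9 of the 10 genes, all but Mcm4. A gene was counted if any of its windows held the word. An E2F word was found in 5 of the 9 (Mcm3, Mcm5, Mcm6, Mcm7 and Cdc6), beside 2.60% of the 27025 genes with such a window in the table. CCAAT was found in 8 of the 9 (all but Cdc6), beside 41.1% of those genes. Such a match is a description of the letters and not of binding.

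Sequencing gave 19.8 to 57.3 M counted reads per library, and the KO libraries (41.5 to 52.3 M) were all deeper than the WT libraries (19.8 to 36.0 M). Ehhadh checked the labels: its WT libraries held 3439, 2232, 2100 and 2197 CPM (reads scaled to library size and composition) and its KO libraries 285, 331, 248 and 176. It was 9.58-fold lower in KO (log2 fold change −3.26, SE 0.21, edgeR adjusted p = 1.86e-05). The summed CPM of proximal tubule markers ran from 38566 to 39917 in WT and, lower and without overlap, from 29017 to 34727 in KO, and 3 of 10 fell in the edgeR test. Collecting duct markers also summed lower without overlap (626 to 967 CPM in WT, 428 to 469 CPM in KO), and 7 of 8 fell, as did 3 of 7 loop and distal tubule markers. Tubular injury markers summed to 800.0 to 951 CPM in WT and 1145 to 1810.5 CPM in KO, and 9 of 12 rose in the edgeR test. Across all tested genes, 6.32% were called higher in KO and 4.68% lower. Because whole kidney was sequenced, a change in the number of cells of a type and a change in RNA per cell cannot be told apart. Some sample titles begin with the letter E and some do not. Each kind belongs to 2 KO (KO 3 and 4, KO 1 and 2) and 2 WT mice (WT 3 and 4, WT 1 and 2). The titles of the DBA_2J and 129S2_SvPasCrl libraries do not begin with E. What the kind, called the title form here, marks is not given in the labels.

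None of the 10 genes passed the edgeR quasi-likelihood test of KO against WT at an adjusted p under 0.05, while 6.32% of all tested genes were called higher in KO and 4.68% lower. Pcna and Rrm2 had an unadjusted p under 0.05. DESeq2 and limma-voom also called 0 of the 10 with 2 at an unadjusted p under 0.05. Of the 10 fold changes 8 were above 0 with a median of 0.11 on the log2 scale, beside 7610 of the 15547 tested genes above 0 and a median of −0.01. Without KO 4, 4 of the 10 were above 0 (Mcm2, Pcna, Rrm1 and Rrm2), with a median of −0.03. With any other library left out, 7 to 9 were above 0, with medians from 0.04 (without WT 1) to 0.18 (without KO 2). The libraries of the genotypes did not overlap for 1 of the 10, Pcna, which lay higher in KO. Such a gap, higher in KO, was found for 9.77% of tested genes, and lower in KO for 7.95% of them and for 0 of the 10. Because the genotypes differed in depth, every library was also thinned to the smallest total. Again 0 of the 10 passed, and 1 (Pcna) had an unadjusted p under 0.05. Thinning removes reads, which makes a call less likely, so the absence of calls there does not settle the part of depth.

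**Figure D1:**
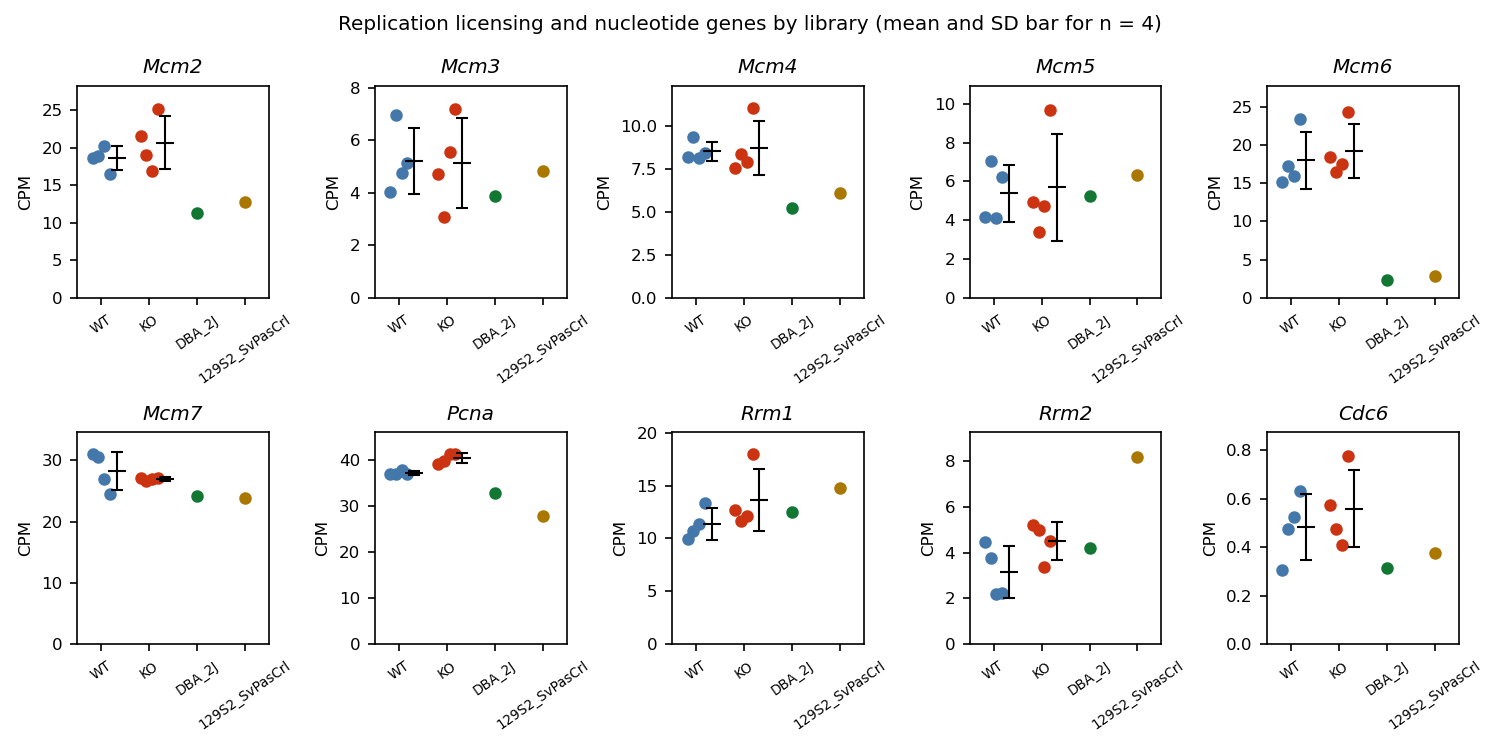
Scaled read counts (CPM, y axis from 0) of each gene in each library, with WT, KO and the single DBA_2J and 129S2_SvPasCrl libraries along the x axis; black bars give the mean and SD of the 4 WT or 4 KO libraries. The WT and KO points overlap for every gene except Pcna, and Mcm6 is far lower in both strain libraries.

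Pcna, the clamp, had the smallest standard error of the 10. Its WT libraries held 37.1, 37.2, 38.1 and 37.2 CPM and its KO libraries 39.6, 40.2, 41.5 and 41.5 CPM. All 4 KO libraries lay above all 4 WT libraries. WT averaged 37.4 ± 0.462 CPM, and KO averaged 40.7 ± 0.969 CPM (SD, n = 4), a difference of 8.84%. The log2 fold change was 0.12 (SE 0.05, 95% interval 0.01 to 0.23), and the edgeR adjusted p was 0.154. Within the titles without a leading E it was 0.10 and within those with it 0.14. The gene lies on chromosome 2 at 132249286 to 132253180 (mm10, minus strand), with 6 exon entries in the count annotation.

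Rrm2, the small subunit of ribonucleotide reductase that carries the tyrosyl radical and is made chiefly in S phase, had the largest fold change of the 10. Its WT libraries held 4.47, 3.79, 2.19 and 2.26 CPM and its KO libraries 5.26, 5.07, 3.38 and 4.54 CPM. The groups overlapped, since KO 3 lay below WT 1 and WT 2. WT averaged 3.18 ± 1.14 CPM, KO averaged 4.56 ± 0.844 CPM (SD, n = 4), and the log2 fold change was 0.54 (SE 0.24, 95% interval 0.01 to 1.08, edgeR adjusted p = 0.184). Values also followed the title form. Leading-E libraries were lower by a log2 difference of −0.61 (SE 0.16) with genotype in the model, at an unadjusted p of 0.00374 and an edgeR adjusted p of 0.201. Within the forms the genotype difference was 0.33 without the leading E (edgeR adjusted p = 0.365) and 0.83 with it (edgeR adjusted p = 0.190). With the form as a covariate the fold change was 0.58 and the edgeR adjusted p 0.0446, which made Rrm2 the 1 of the 10 genes called higher in that model, beside 7.44% of all tested genes. Rrm2 lies on chromosome 12 at 24708254 to 24714146 (plus strand) with 10 exon entries, and 71 to 264 reads were counted in the C57BL/6N libraries.

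Rrm1, the large subunit that holds the catalytic and allosteric sites, was higher in KO on average without passing the test. It was measured at 9.97, 10.8, 11.5 and 13.5 CPM in WT, against 12.9, 11.9, 12.2 and 18.1 CPM in KO. Only WT 4 reached into the KO range. The group means were 11.4 ± 1.49 and 13.7 ± 2.92 CPM (SD, n = 4), with a log2 fold change of 0.26 (SE 0.15, 95% interval −0.06 to 0.59, edgeR adjusted p = 0.286). Without KO 4 the fold change was 0.10. Per kilobase of exon, Rrm2 stood at 0.531 ± 0.245 of the Rrm1 level in WT and 0.626 ± 0.164 in KO (SD, n = 4). This ratio ran from 0.308 to 0.822 in WT and from 0.460 to 0.784 in KO, so the KO range lay inside the WT range. The gene spans 102441695 to 102469771 on chromosome 7 (plus strand).

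The 6 helicase subunits had fold changes close to 0 with intervals on both sides of it. Mcm2 gave 18.8, 19.1, 20.4 and 16.5 CPM in WT, against 21.8, 19.3, 17.0 and 25.3 CPM in KO. Mcm6, whose promoter is printed first above, gave 15.3, 17.5, 16.1 and 23.6 CPM in WT, against 18.6, 16.7, 17.7 and 24.5 CPM in KO. In both genes KO 4 was the highest library, and the groups overlapped. The log2 fold change was 0.16 for Mcm2 (SE 0.12, 95% interval −0.10 to 0.42, edgeR adjusted p = 0.441). For Mcm6 it was 0.09 (SE 0.15, 95% interval −0.24 to 0.43, edgeR adjusted p = 0.751). Mcm2 lies on chromosome 6 at 88883474 to 88898780 and Mcm6 on chromosome 1 at 128331591 to 128359656, both on the minus strand.

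Mcm4, Mcm6 and Mcm7 form the core of the ring that unwinds DNA in vitro. Mcm4 stood at 8.28, 9.46, 8.20 and 8.49 CPM in WT, against 7.64, 8.47, 7.98 and 11.1 CPM in KO. The log2 fold change was 0.03 (SE 0.13, 95% interval −0.25 to 0.32, edgeR adjusted p = 0.909). KO 4 lay above the WT range, and the other 3 KO libraries lay within or below it. Mcm4 sits 6.12 Mb from Ehhadh on chromosome 16, at 15623897 to 15637400 (minus strand). Mcm7 stood at 31.2, 30.8, 27.1 and 24.6 CPM in WT, against 27.5, 27.0, 27.1 and 27.4 CPM in KO. The KO libraries were close to each other (SD 0.239 CPM) and fell inside the wider WT range (SD 3.14 CPM). Its log2 fold change was −0.06 (SE 0.08, 95% interval −0.23 to 0.11, edgeR adjusted p = 0.693), the narrowest interval among the subunits. Mcm7 lies on chromosome 5 at 138164589 to 138171862 (minus strand) and hosts Mir25, Mir93 and Mir106b, which share 0 bases with its exons.

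Among the subunits, Mcm3 and Mcm5 had the largest standard errors. Mcm3 gave 4.06, 7.04, 4.77 and 5.15 CPM in WT, against 4.77, 3.14, 5.57 and 7.24 CPM in KO. Mcm5, which forms with Mcm2 the gate through which DNA enters the ring, gave 4.21, 7.10, 4.16 and 6.27 CPM in WT, against 5.005, 3.45, 4.75 and 9.74 CPM in KO. In each gene the lowest and the highest of the 8 libraries were both KO mice, KO 2 and KO 4. The log2 fold change was −0.02 for Mcm3 (SE 0.24, 95% interval −0.56 to 0.51, edgeR adjusted p = 0.965). That of Mcm5 was 0.08 (SE 0.30, 95% interval −0.58 to 0.73, edgeR adjusted p = 0.906). Mcm3 was above 0 without KO 1 (0.016), KO 2 (0.15) or WT 2 (0.16), and Mcm5 below 0 without WT 1 (−0.013) or WT 3 (−0.035). The intervals leave room for changes near 1.5-fold in either direction. Mcm3 lies on chromosome 1 at 20803014 to 20820213 (minus strand) and Mcm5 on chromosome 8 at 75109528 to 75128439 (plus strand).

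The loader Cdc6 was near the lower edge of what the libraries measured, with 6 to 41 reads per C57BL/6N library. Its levels were 0.308, 0.478, 0.527 and 0.636 CPM in WT, against 0.578, 0.483, 0.412 and 0.782 CPM in KO, and the groups overlapped. The log2 fold change of 0.19 had a 95% interval from −0.55 to 0.92 (SE 0.33, edgeR adjusted p = 0.777), which leaves room for changes in either direction. The gene lies on chromosome 11 at 98907889 to 98923942 (plus strand).

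**Figure D2:**
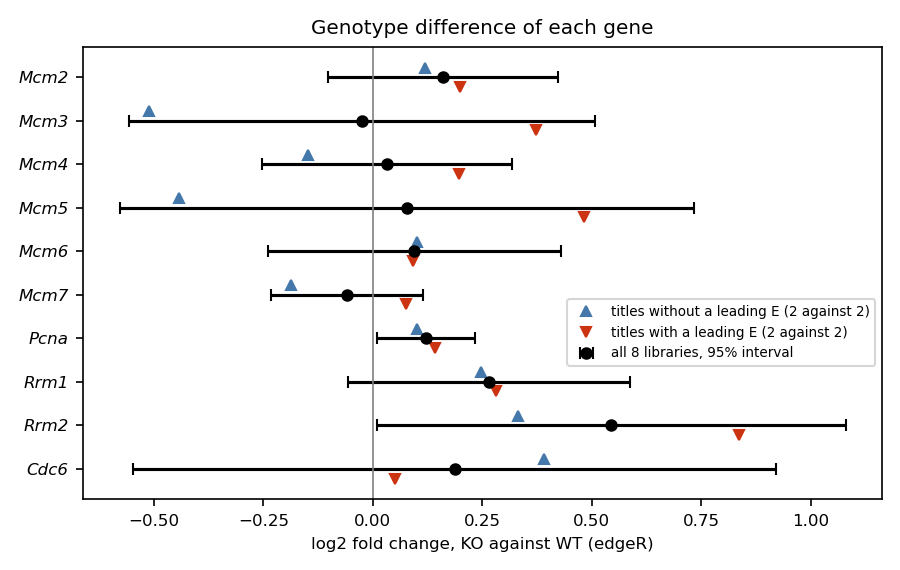
log2 fold change of KO against WT (x axis, edgeR) for each of the 10 genes (y axis), with black points and 95% intervals from all 8 C57BL/6N libraries and triangles from the 2 KO and 2 WT libraries of each title form. The intervals of Pcna (0.01 to 0.23) and Rrm2 (0.01 to 1.08) lie above 0 before adjustment, and Mcm3, Mcm4, Mcm5 and Mcm7 have triangles on opposite sides of 0.

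Within the title forms, Mcm3 had a log2 fold change of −0.51 without the leading E and 0.37 with it. For Mcm5 the values were −0.44 and 0.48, for Mcm4 −0.15 and 0.20, and for Mcm7 −0.19 and 0.07. The other 6 genes had positive values within both forms. The difference between the forms was tested as an interaction, added after the data were seen, and 0 of the 10 genes passed it. Mcm3 came closest, with an interaction of −0.88 on the log2 scale, an unadjusted p of 0.0572 and an edgeR adjusted p of 0.755.

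Expressed per kilobase of exon, which lets genes be compared, Pcna RNA was the most abundant of the 10 in WT at 29.7 ± 0.366 RPKM (reads per kilobase of exon, scaled as CPM; SD, n = 4). Mcm7 followed at 11.9 ± 1.31 RPKM, Mcm6 at 6.25 ± 1.30 RPKM and Mcm2 at 5.54 ± 0.476 RPKM. Mcm6 and Mcm2 did not differ beyond their spread. Rrm1 (2.86 ± 0.372 RPKM) and Mcm4 (2.40 ± 0.162 RPKM) came next, then Mcm3, Mcm5 and Rrm2 at 1.82 ± 0.441, 1.59 ± 0.433 and 1.46 ± 0.521 RPKM. From Rrm1 to Rrm2, each gene did not differ from the next beyond their spread. Cdc6 was lowest at 0.104 ± 0.029 RPKM. The RNAs of the helicase subunits, which enter the ring in equal numbers, thus ran from 1.59 to 11.9 RPKM in WT. The order of the first 6 was the same in KO, with Pcna at 32.3 ± 0.769 RPKM and Mcm7 at 11.4 ± 0.0996 RPKM. Rrm2 stood above Mcm3 and Mcm5 there, at 2.09 ± 0.387 RPKM.

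Among the KO mice, 1 library stood apart for several of the genes. KO 4 was the highest of the 8 C57BL/6N libraries for 7 of the 10 genes (all but Mcm7, Pcna and Rrm2), whereas it was the highest for 17.3% of all tested genes. Against the mean of the other 3 KO libraries it was 2.21 times as high for Mcm5, 1.61 times for Mcm3 and 1.59 times for Cdc6. Of all tested genes, 0.617% had a ratio as high as that of Mcm5, and the median gene had a ratio of 0.996. The ratio was 1.47 for Rrm1, 1.39 for Mcm6, 1.38 for Mcm4 and 1.31 for Mcm2. By contrast it was 1.03 for Pcna, 1.01 for Mcm7 and 0.992 for Rrm2, so these did not share the pattern. KO 4 was also the deepest C57BL/6N library, at 52.3 M counts. It had the highest injury marker sum (1810.5 CPM beside 1145 to 1265 CPM in the other KO libraries) and the highest sums of loop and distal tubule markers (3997 CPM beside 2757 to 3466 CPM) and of podocyte markers (226 CPM beside 180 to 195 CPM). Its sums were the lowest for proximal tubule (29017 CPM beside 31355 to 34727 CPM), endothelial (112 CPM beside 147 to 165 CPM) and red cell markers (749 CPM beside 1041 to 1653 CPM). Those of collecting duct, B cells, fibroblasts and pericytes, macrophages (105 CPM beside 101 to 125 CPM) and T and NK cells (3.58 CPM beside 2.50 to 4.72 CPM) lay within those of the other KO libraries. The part of any of these in the KO 4 values was not tested. With KO 4 left out the log2 fold changes were −0.23 for Mcm3, −0.10 for Mcm4, −0.31 for Mcm5, −0.04 for Mcm6 and −0.01 for Cdc6, each on the other side of 0 or farther below it, and 0 of the 10 passed.

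**Figure D3:**
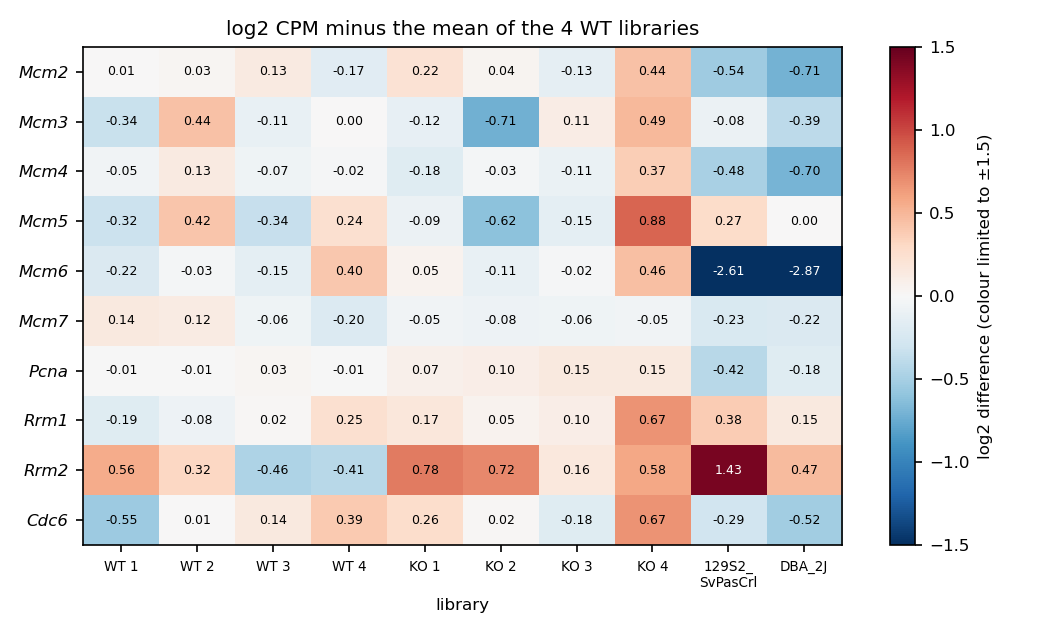
Difference in log2 CPM from the mean of the 4 WT libraries for each gene (rows) in each library (columns), with the value printed in each cell and colour from blue (lower) to red (higher) limited to ±1.5. KO 4 is red for Mcm2 to Mcm6, Rrm1, Rrm2 (0.58) and Cdc6, and for Rrm2 KO 1 (0.78) and KO 2 (0.72) are redder. Mcm6 reaches −2.61 in 129S2_SvPasCrl and −2.87 in DBA_2J.

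Whether the genes varied together was measured over the 8 C57BL/6N libraries for all 45 pairs on log2 CPM. Only Mcm6 and Rrm1 passed adjustment over the pairs by Pearson correlation, with r = 0.88 (exact permutation p = 0.00057, adjusted p = 0.0257). Spearman's rho for this pair was 0.93 (exact permutation p = 0.00223, adjusted p = 0.100), and 0 of the 45 pairs passed by rho. Their r was 0.79 without the 2 libraries farthest from the median of Mcm6, 0.81 without KO 4 and 0.92 for deviations from the genotype means. Mcm3 and Mcm5 came next with r = 0.89 (exact permutation p = 0.00288, adjusted p = 0.0647; rho 0.83, adjusted p = 0.231). Some pairs changed when libraries were left out. Mcm4 and Mcm5 had r = 0.80 (exact permutation p = 0.0181, adjusted p = 0.163). Their r was −0.16 without the 2 libraries farthest from the median of Mcm4, and 0.50 without KO 4. All libraries share their depth and scaling with both genes of a pair.

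The mean of the 6 standardised subunit levels was 1.43 in KO 4, 0.61 in WT 2 and between −0.71 and −0.12 in the other 6 libraries. Among 13729 other genes with a mean of 1 CPM or more, those whose log2 CPM followed it most closely over these 8 libraries were Klhdc10 (Pearson r = 0.95), Tbccd1 (0.93), Lipa, the lysosomal acid lipase (0.93), Sbk1 (0.92) and Nucb1 (0.92). Their rank correlations were 0.83, 0.38, 0.74, 1.0 and 0.60, and their r without KO 4 was 0.88, 0.78, 0.72, 0.93 and 0.70. These genes were chosen as the closest, so the values describe and test nothing.

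The rest of the replication and nucleotide pathway was examined in 10 lists that hold none of the 10 genes. Of 125 listed genes 120 were tested, 10 rose, 2 fell and 108 did not pass the edgeR test, with a median log2 fold change of 0.03. Beside this count and that of each list below, 6.32% of all tested genes were called higher in KO and 4.68% lower. Without KO 1, WT 1 or WT 3 the count that rose was 6, and without KO 4 the count that fell was 5 (1 without KO 1, WT 2 or WT 4, and 0 without KO 2, KO 3, WT 1 or WT 3). In origin recognition and licensing 0 of 12 passed (median −0.02). Gmnn, the inhibitor of the loading factor Cdt1, had a log2 fold change of −0.24 (edgeR adjusted p = 0.106), and Orc2, an origin recognition subunit, 0.13 (edgeR adjusted p = 0.256). In helicase activation and fork genes 0 of 13 passed (median −0.01), among them Cdc45, which binds the ring to activate it, at −0.44 (edgeR adjusted p = 0.148) and Topbp1 at 0.18 (edgeR adjusted p = 0.158). Polymerases and primase gave 0 of 12 (median 0.06) and clamp loaders, which place Pcna on DNA, 0 of 8 (median 0.05). Pold3 had the smallest p of these at 0.16 (edgeR adjusted p = 0.211).

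Around the reductase, 0 of 15 genes of deoxynucleotide synthesis and salvage passed (median 0.00). Cmpk1 stood at 0.14 (edgeR adjusted p = 0.144) and Dck, deoxycytidine kinase, at 0.37 (edgeR adjusted p = 0.150). In the upstream synthesis of purines and pyrimidines 2 of 17 rose and 1 fell (median 0.03). Ctps, which makes CTP, rose from 27.9 ± 0.932 to 35.7 ± 3.05 CPM (SD, n = 4, log2 fold change 0.35, edgeR adjusted p = 0.00949). Atic rose by 0.35 (edgeR adjusted p = 0.0283) and Paics fell by 0.24 on the log2 scale (edgeR adjusted p = 0.0305), both of them enzymes of purine synthesis. Among lagging strand and single-strand binding genes 1 of 9 rose, Rnaseh2b, a subunit of the enzyme that removes ribonucleotides from DNA (0.32, edgeR adjusted p = 0.0253). The call of Atic was lost without KO 2, KO 4, WT 1, WT 2 or WT 3 (edgeR adjusted p up to 0.0783). That of Paics was lost without any of KO 1 to 3 or WT 1 to 3 (up to 0.0912). That of Rnaseh2b was lost without KO 1, KO 2, WT 1 or WT 4 (up to 0.0720).

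Among 21 tested regulators of entry into S phase, 3 rose and 1 fell (median 0.06). E2f1, the founding E2F factor, held 3.34, 3.57, 4.35 and 3.72 CPM in WT, against 10.01, 9.53, 6.57 and 7.76 CPM in KO, without overlap. It rose by a log2 fold change of 1.17 (SE 0.16, edgeR adjusted p = 0.00105). Myc rose by 1.01 (edgeR adjusted p = 0.0105) and Cdk4, the kinase partner of the D cyclins, by 0.32 (edgeR adjusted p = 0.00727). Ccnd3, cyclin D3, fell by 0.32 on the log2 scale (edgeR adjusted p = 0.0319), a call lost without KO 2, KO 3, WT 1, WT 3 or WT 4 (adjusted p up to 0.0930). Of 6 inhibitors of cyclin-dependent kinases 2 rose (median 0.03): Cdkn2c by 0.54 (edgeR adjusted p = 0.0115) and Cdkn1a, the p21 protein that can bind Pcna, by 1.20 (edgeR adjusted p = 0.0375). In the replication-coupled chromatin list 2 of 7 rose (median 0.54), Uhrf1, which recruits the maintenance DNA methyltransferase, by 1.05 (edgeR adjusted p = 0.0397) and Chaf1b of the histone chaperone CAF-1 by 0.83 (edgeR adjusted p = 0.0460). Cdkn1a was no longer called without KO 1, KO 2, WT 2, WT 3 or WT 4 (edgeR adjusted p up to 0.106). With 1 library left out, Uhrf1 was still called without KO 2 or KO 3 (otherwise adjusted p up to 0.109), and Chaf1b without WT 4 (otherwise up to 0.111).

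Mitotic genes and p53 targets, set beside the 10 genes for orientation, included many that rose. Of 22 mitotic genes 13 rose and 0 fell (median 1.07), and 8 rose without KO 1. With leading-E libraries alone 0 rose, and with the other form alone 9 rose. Those fits, on 4 libraries each, called 143 of 15792 and 1723 of 15540 tested genes. Mki67, the marker of cycling cells, rose from 1.35 ± 0.245 to 4.85 ± 0.594 CPM (SD, n = 4, log2 fold change 1.83, edgeR adjusted p = 0.000155). Cdk1 rose by 2.25 (edgeR adjusted p = 0.00209), Pbk by 2.93 (edgeR adjusted p = 0.00380) and Cdc20 by 1.10 (edgeR adjusted p = 0.00415). KO 4, the highest of the 8 C57BL/6N libraries for Mcm2 to Mcm6 but not for Mcm7, had a KO-range value for Mki67. It held 4.56 CPM beside 4.29 to 5.66 CPM in the other KO libraries. Mki67 is 1 of the 22 mitotic genes, and whether the KO 4 subunit levels go with cycling was not tested. Of 12 p53 targets 4 rose and 0 fell (median 0.31): Eda2r, Bbc3, Zmat3 and Cdkn1a. The count that rose was 1 without KO 1, 2 without WT 2 or WT 3 and 6 without KO 3. It was 0 with leading-E libraries alone and 5 with the other form alone. Whether the 10 genes changed less than the mitotic genes was not tested, and both lists were chosen with earlier results known.

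**Figure D4:**
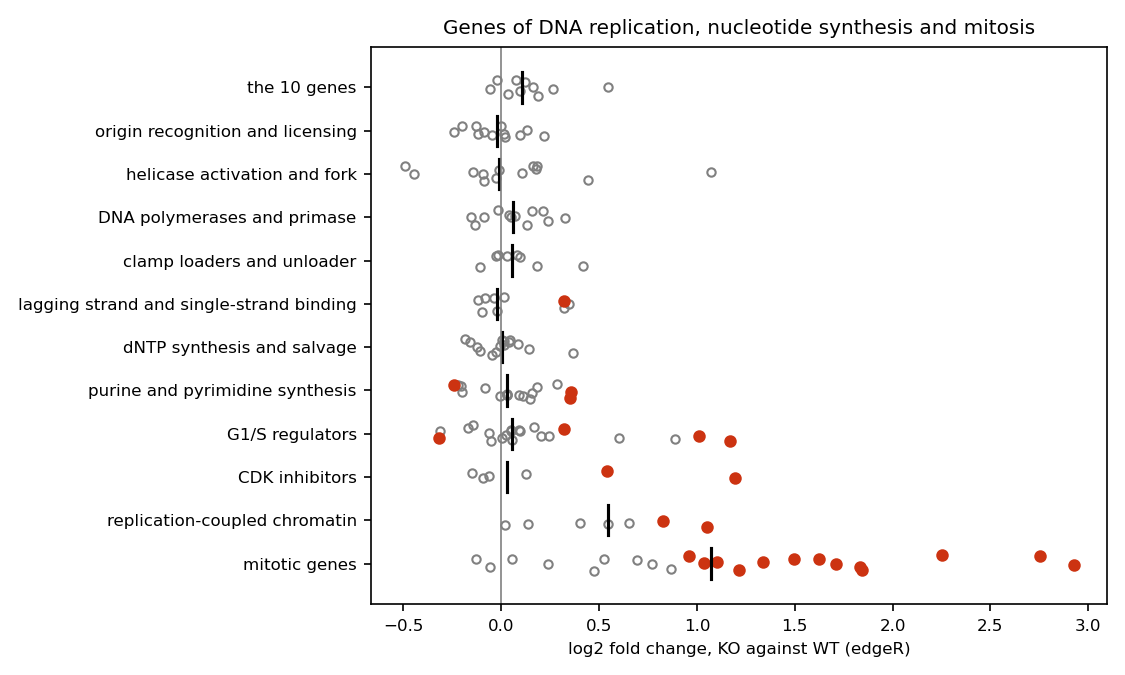
log2 fold change of KO against WT (x axis, edgeR) for each tested gene of the lists named on the y axis, with the 10 genes in the top row; filled red points passed at an adjusted p under 0.05, open grey points did not, and black lines are medians. The top row has no filled point and a median of 0.11, while 13 of 22 mitotic genes are filled.

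The wild-type mice of the other strains were set beside the 4 WT C57BL/6N mice, with all 10 libraries scaled together. There was 1 mouse per strain, so no difference was tested and a fold of 1.5 was used to count. In DBA_2J, 3 of the 10 genes lay past that fold below the WT mean (Mcm2, Mcm4 and Mcm6), beside 17.6% of tested genes, and 0 above, beside 11.6%. In 129S2_SvPasCrl, 1 of the 10 lay below (Mcm6), beside 12.1%, and 1 above (Rrm2), beside 9.47%. Mcm6 alone was past the fold below in both, as were 7.83% of tested genes. Without WT 1 in the mean, 1 gene (Rrm2) lay above in DBA_2J, and without WT 4, 2 genes (Mcm2 and Mcm6) lay below in 129S2_SvPasCrl.

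Mcm6 stood at 2.38 CPM in DBA_2J and 2.87 CPM in 129S2_SvPasCrl, while the WT libraries ran from 15.2 to 23.5 CPM (18.004 ± 3.74, SD, n = 4). It was thus 7.33-fold and 6.10-fold lower, log2 differences of −2.87 and −2.61. Only 0.875% of tested genes were as far below WT in DBA_2J and 0.939% in 129S2_SvPasCrl. The values rest on 129 and 145 reads, against 298 to 1286 reads in the C57BL/6N libraries. Relative to Mcm2 per kilobase, Mcm6 stood at 0.245 in DBA_2J and 0.262 in 129S2_SvPasCrl, beside 1.15 ± 0.348 in WT and 1.08 ± 0.103 in KO (SD, n = 4). The ratio of Mcm4 to Mcm2, by comparison, was 0.438 and 0.450 in the strains and 0.435 ± 0.0480 in WT. Reads were aligned to the C57BL/6 reference, and the part that sequence differences between strains play in the Mcm6 count was not tested.

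The neighbours of Mcm6 were examined after its values were seen. Of the other 6 tested genes within 500 kb, 1 lay below all WT libraries in both strains. This was Zranb3, which encodes a fork-remodelling enzyme, at 3.34 CPM in DBA_2J and 3.58 CPM in 129S2_SvPasCrl (WT 4.08 to 7.61 CPM), log2 differences of −0.64 and −0.54. R3hdm1 lay above all WT libraries in both strains. It held 61.1 CPM in DBA_2J and 53.6 CPM in 129S2_SvPasCrl (WT up to 51.2 CPM), log2 differences of 0.33 and 0.15. The shares of all tested genes below or above all WT libraries in both strains were not worked out. Dars, which encodes the cytoplasmic aspartyl-tRNA synthetase and lies from 128363707 to 128417416 beyond the 5′ end of Mcm6, had 71.2 CPM in DBA_2J and 64.3 CPM in 129S2_SvPasCrl, beside 67.2 ± 0.958 CPM in WT. Ubxn4 on the other side differed from WT by 0.06 and −0.09 on the log2 scale.

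**Figure D5:**
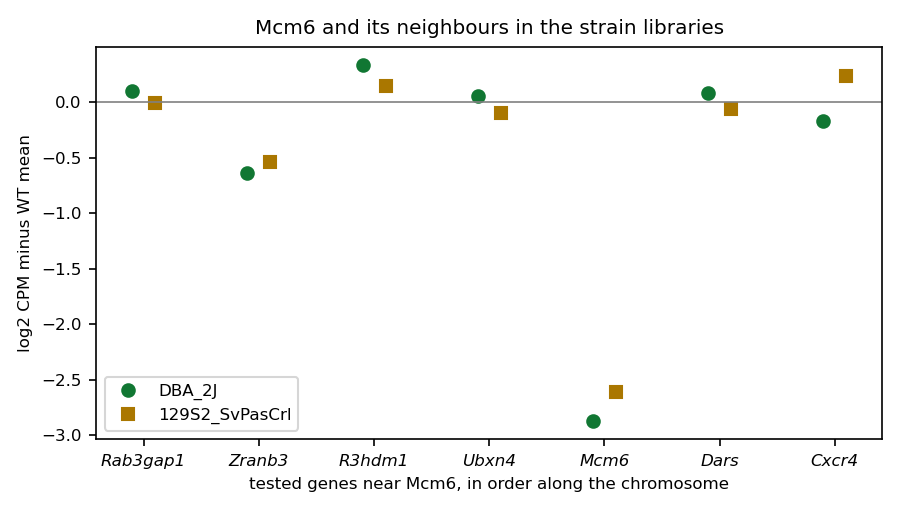
Difference in log2 CPM from the WT mean (y axis) in the DBA_2J (circles) and 129S2_SvPasCrl (squares) libraries for the 7 tested genes within 500 kb of Mcm6, in chromosome order along the x axis without distances. Mcm6 lies at −2.87 and −2.61 and the other 6 genes between −0.64 and 0.33.

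Rrm2 stood out upward in 129S2_SvPasCrl. It held 8.17 CPM there and 4.18 CPM in DBA_2J, beside 3.16 ± 1.13 CPM in WT (SD, n = 4, 2.18 to 4.44). The 129S2_SvPasCrl value was 2.69-fold above the WT mean and above all 8 C57BL/6N libraries, as it was for 24.3% of tested genes, whereas DBA_2J lay within the WT range. The WT mean mixes both title forms, while neither strain title begins with E. WT 1 and WT 2, also without the E, lay 0.56 and 0.32 above that mean on the log2 scale. The strain libraries lay 1.43 (129S2_SvPasCrl) and 0.47 (DBA_2J) above it. The part of the title form in the strain values was not tested. Rrm1 was at 14.7 and 12.5 CPM, beside 11.3 ± 1.48 CPM in WT, so the ratio of Rrm2 to Rrm1 per kilobase was 1.02 in 129S2_SvPasCrl and 0.614 in DBA_2J. Of the 15 other genes of deoxynucleotide synthesis and salvage, 1 lay past 1.5-fold above WT in each strain, thymidine kinase Tk1. Over all tested genes the share was 11.6% in DBA_2J and 9.47% in 129S2_SvPasCrl. Below WT by that fold lay 1 in DBA_2J (Tk2), beside 17.6% of tested genes. In 129S2_SvPasCrl 3 did (Tyms, Tk2 and Dctd), beside 12.1%. The medians of the list were 0.15 and 0.05. These genes were named after their values were seen.

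Mcm2 was at 11.3 CPM in DBA_2J and 12.7 CPM in 129S2_SvPasCrl (WT 16.4 to 20.2 CPM), log2 differences of −0.71 and −0.54. Mcm4 was at 5.25 and 6.09 CPM (WT 8.15 to 9.37 CPM), differences of −0.70 and −0.48. Pcna was at 32.7 and 27.8 CPM (WT 36.8 to 37.8 CPM), differences of −0.18 and −0.42. These 3 genes, with Mcm6 and Mcm7 (24.1 and 23.9 CPM), lay below all 8 C57BL/6N libraries in both strains, as did 15.5% of tested genes. Mcm3 at 3.89 and 4.83 CPM, Mcm5 at 5.25 and 6.35 CPM and Cdc6 at 0.313 and 0.376 CPM lay within the range of the 8 libraries. Most of the mitotic list lay on the other side in these single mice. Past 1.5-fold above WT were 16 of its 22 genes in DBA_2J and 15 of 22 in 129S2_SvPasCrl, beside 11.6% and 9.47% of tested genes. Past that fold below WT were 1 in DBA_2J and 2 in 129S2_SvPasCrl. The median log2 differences of the list were 1.20 and 1.07.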

How the data were processed

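PolyA-selected RNA was sequenced as single-end reads, per the labels' protocols, and STAR, featureCounts and edgeR with build mm10 are named in the submitters' processing notes. Per the file headers, the authors' counts came from featureCounts 1.5.2 over exons summed by gene, without a strand option and with reads shared between overlapping genes. The deposited table of log2 values equalled log2 CPM with TMM scaling and was used as an alternative. It lacks Cdc6.

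Counts of the 8 C57BL/6N libraries were fitted in edgeR 4.0.16 (R 4.3.3) by genotype alone, with filterByExpr, TMM scaling, the quasi-likelihood F test and Benjamini-Hochberg adjustment over 15547 genes (called at an adjusted p under 0.05). CPM used the same scaling. The 10-library scaling served the strain comparison, with log2 CPM at a prior count of 2, so WT means differ slightly there. RPKM divided CPM by the summed exon length in the deposited tables. Correlations used scipy 1.17.1. Depth was 19.79 to 57.25 M counts, so 1 CPM is about 20 reads in the shallowest library. In simulated counts of 15393 genes for this design, the test recovered 40 of 50 genes changed 1.5-fold and 48 of 50 changed 2-fold. It also called 12 unchanged genes. Changes were set only in genes above 1 CPM, which leaves out Cdc6. The rates are averages over genes and were not worked out for any of the 10.

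The labels gave 4 KO, 4 WT and 2 single strain libraries. Replicates were numbered by accession order, which pairs no samples. The labels name separate mice by title only, and p-values measure the spread between these samples. Alternatives were RLE factors, DESeq2 1.42.0, limma-voom (limma 3.58.1), limma on the deposited log2 values, no filter, the title form as covariate or split, thinning, and leaving out each library. The 10 genes and the gene lists were chosen with earlier results of these data known. Named genes were the 10, Ehhadh, up to 4 called genes per list by smallest p (up to 2 where none was called), and the 5 closest in pattern to the MCM mean.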

Additional observations from a re-analysis of the deposited data

Results flagged for a closer look

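In the 20 groups of 4 libraries (10 genes in KO and in WT), a library stood far from the others in 2, and chance gives such a gap in about 1 in 20 groups. For Pcna, WT 3 at 38.07 CPM lay above the other WT libraries by 0.928 of the group's range, although it stayed below every KO library. For Rrm1, KO 4 at 18.07 CPM lay above the other KO libraries by 0.834 of the range.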

How the results depend on the processing

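Of the fold changes of the 10 genes under the KO against WT alternatives, 154 kept their direction and side of the threshold, 14 changed sign and 1 became a call. With leading-E libraries alone Mcm3 was 0.37 and Mcm7 0.075. With the other form alone Mcm4 was −0.15 and Mcm5 −0.44, and after thinning, added for depth, Mcm4 was −0.11. With the title form as covariate Rrm2 was 0.58 (edgeR adjusted p = 0.0446), so 1 gene was called higher. Leaving out each library gave 0.05 to 0.25 for Mcm2, −0.23 to 0.16 for Mcm3, −0.10 to 0.10 for Mcm4, −0.31 to 0.25 for Mcm5, −0.040 to 0.25 for Mcm6, −0.12 to −0.01 for Mcm7, 0.11 to 0.14 for Pcna, 0.10 to 0.35 for Rrm1, 0.40 to 0.74 for Rrm2 and −0.014 to 0.34 for Cdc6, with 0 of the 10 called each time. The causes were not tested. Of the 120 pathway genes, 6 to 9 were called higher and 0 to 5 lower with a library left out (10 and 2 with all). With leading-E libraries alone 1 was called higher and 0 lower, in a fit on 4 libraries that called 143 of 15792 genes. With the other form alone 8 were called higher and 4 lower, in a fit that called 1723 of 15540 genes. After thinning 9 were called higher and 1 lower. In the strains, Pcna in DBA_2J differed by −0.16 with RLE factors and −0.24 against the mean of all 8 C57BL/6N libraries, and in 129S2_SvPasCrl by −0.47 against that mean. At a fold of 2, 1 gene lay below WT in DBA_2J. Against all 8 libraries 2 lay below in 129S2_SvPasCrl. Leaving out WT libraries gave 0 to 1 genes above and 3 to 4 below in DBA_2J, and 1 and 1 to 2 in 129S2_SvPasCrl. No paired analysis was possible because the labels give no replicate numbers.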
